A study of Homo sapiens with 30 samples.

Results

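The alpha-arrestins TXNIP, ARRDC1, ARRDC2, ARRDC3 and ARRDC4 were followed as RNA levels in sorted breast cancer cells of tumours and metastases. They were chosen by gene name, and all 5 were found in both deposited count tables, among 38526 genes in the table of the first experiment and 36291 in that of the retransplantation experiment. The family was chosen with the metastasis against tumour values of ARRDC3 already known, so every member's value in those comparisons is given as a description, without a test. The cells were MDA-MB-231, a human triple-negative breast cancer line, marked with lentiviral LeGO barcodes and grown in NSG mice (NOD-SCID-IL2Rγc−/−), a strain without functional T, B and natural killer cells. Mice 1, 2 and 3 each gave sorted cells of subclones 2 and 13 from the primary tumour, the lung and the liver, which made 6 groups of 3 samples. The retransplantation experiment held subclone 2 labelled lung or liver metastasis from mice 4, 5 and 6, which gave 2 groups of 3 samples, and the organ in its labels may be where the transplanted cells came from or where they grew. All groups share the line, the barcoding and the host strain, and no label names a drug, a further gene alteration or an age of the mice. Each subclone is 1 clone, so a difference between the subclones compares 2 clones. Replicates are different mice, per the labels.

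Alpha-arrestins carry the arrestin fold and, in most members, short proline-rich motifs that bind the WW domains of NEDD4 family ubiquitin ligases. In this way they bring a ligase to a membrane protein, which is then ubiquitinated and internalised. TXNIP differs from its relatives in that it also binds thioredoxin, a protein that keeps cysteines of other proteins reduced. TXNIP and its closest relative ARRDC4 both lower glucose uptake, and both are transcribed when the glucose-sensing factors MondoA (gene MLXIP) or ChREBP (gene MLXIPL), each paired with MLX, bind carbohydrate response elements. ARRDC3 directs membrane proteins such as integrin beta 4 and the thrombin receptor PAR1 to degradation or to endosomes, and it has been described as a suppressor of invasion in basal-like breast cancer cells. ARRDC1 recruits the ESCRT protein TSG101 to the plasma membrane and drives the budding of small vesicles, and less is known of ARRDC2.

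The samples of mice 1 to 3 had 11.8 to 82.2 M counts (1 M is 1000000) and those of mice 4 to 6 had 23.4 to 32.3 M. Mouse and sequencing run cannot be told apart in the first experiment, since each mouse had its own run, apart from subclone 13 of mouse 1, whose 3 libraries per organ came from runs 1, 2 and 3 and were summed. Defining genes of the line were present, with VIM, CD44 and EGFR summing to 3213 to 10422 CPM (counts per 1000000 counts, scaled by TMM) in the first experiment and 4136 to 8264 CPM in the second. ESR1, PGR and CDH1, which this line lacks or holds at low levels, summed to at most 6.22 CPM. Sums of markers of other cells moved with the organ in the first experiment. The leukocyte markers PTPRC, CD68, LYZ and CD14 summed to 0.372 to 3.22 CPM in tumours and to 3.34 to 15.1 CPM in metastases. CD14 moved the most, at 0 to 1.51 CPM in tumours and 1.62 to 14.0 CPM in metastases. PTPRC overlapped, at 0.0796 to 0.828 CPM in tumours and 0 to 0.889 CPM in metastases. The fibroblast and stellate markers, almost all of them PDGFRB reads, summed to 24.7 to 37.0 CPM in tumours and to 5.77 to 22.7 CPM in metastases, with DCN at no more than 0.392 CPM. Values are bulk levels, so fewer expressing cells and less RNA per cell cannot be told apart.

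TXNIP lies on the minus strand at chr1:145992435-145996600 (GENCODE v29, GRCh38), ARRDC3 on the minus strand at chr5:91368724-91383359, and ARRDC4 on the plus strand at chr15:97960698-97973838. ARRDC1 (plus strand) lies at chr9:137605654-137615360 and ARRDC2 (plus strand) at chr19:18001132-18014102. All 5 are protein-coding, and counts are over exons. The stretches just before the gene starts of TXNIP and ARRDC4 are shown because these members share the glucose-sensing factors, and that of ARRDC3 because this member had the widest separation of tumours from metastases. They are RefSeq promoter sequences of GRCh38.p14, written 5′ to 3′ on the strand of the gene, and all 5 members had an entry. Capitals mark a pair of CACGNG with 5 bases of any kind between them (the form searched for a carbohydrate response element), CACGTG (an E-box), GTAAACA (a forkhead motif) and CCAAT, each searched on both strands, so that ATTGG is a CCAAT read from the other strand.
TXNIP: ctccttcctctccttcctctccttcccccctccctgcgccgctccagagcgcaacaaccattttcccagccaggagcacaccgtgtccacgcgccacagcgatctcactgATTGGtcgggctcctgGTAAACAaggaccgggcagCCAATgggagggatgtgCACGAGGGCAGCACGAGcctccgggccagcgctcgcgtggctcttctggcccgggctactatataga
ARRDC4: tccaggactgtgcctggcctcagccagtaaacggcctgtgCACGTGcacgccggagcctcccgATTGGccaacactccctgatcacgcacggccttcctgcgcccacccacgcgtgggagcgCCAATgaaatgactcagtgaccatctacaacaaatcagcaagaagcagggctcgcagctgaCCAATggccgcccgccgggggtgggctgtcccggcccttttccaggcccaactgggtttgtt
ARRDC3: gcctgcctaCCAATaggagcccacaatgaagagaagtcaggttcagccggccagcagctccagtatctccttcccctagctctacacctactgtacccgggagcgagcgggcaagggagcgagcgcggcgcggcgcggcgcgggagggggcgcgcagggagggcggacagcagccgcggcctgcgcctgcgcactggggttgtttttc
The stretches span chr1:145996601-145996829 for TXNIP, chr15:97960453-97960697 for ARRDC4 and chr5:91383360-91383567 for ARRDC3.

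In the TXNIP stretch the 17 bases of the carbohydrate response element form lay 88 to 72 bases before the RefSeq start, and the form was found in 16 of 35116 RefSeq windows of 250 bases before a start (0.0456%). A forkhead motif lay 124 to 118 bases before the TXNIP start, and 2.98% of the windows held it. The ARRDC4 window held no match to the carbohydrate response element form. It held the E-box, 210 to 205 bases before the start, which 6.34% of windows held, and 3 CCAAT boxes. CCAAT was in 32% of windows, with 2 in the TXNIP window and 1 in the shown ARRDC3 window. At its second RefSeq start, ARRDC3 had a forkhead motif 29 to 23 bases before the start. None of these windows held TGACGTCA, a cAMP response element, which was in 1.65% of all windows. These are matches of letters, and nothing was measured at these sequences.

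Per kilobase of exon, TXNIP and ARRDC3 were the most abundant members and ARRDC4 the least. Over the 18 samples of the first experiment the mean level was 52.9 CPM per kilobase for ARRDC3, 45.0 for TXNIP, 16.3 for ARRDC1, 12.9 for ARRDC2 and 1.31 for ARRDC4. ARRDC4 rested on 32 to 458 counts per sample, the fewest of the family, while TXNIP rested on 1167 to 17050. The retransplantation means were 55.9 CPM per kilobase for ARRDC3 and 44.0 for TXNIP, with ARRDC4 at 1.64. ARRDC5, the remaining member of the human family, was at 0 in most samples and never above 0.154 CPM.

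**Figure D1:**
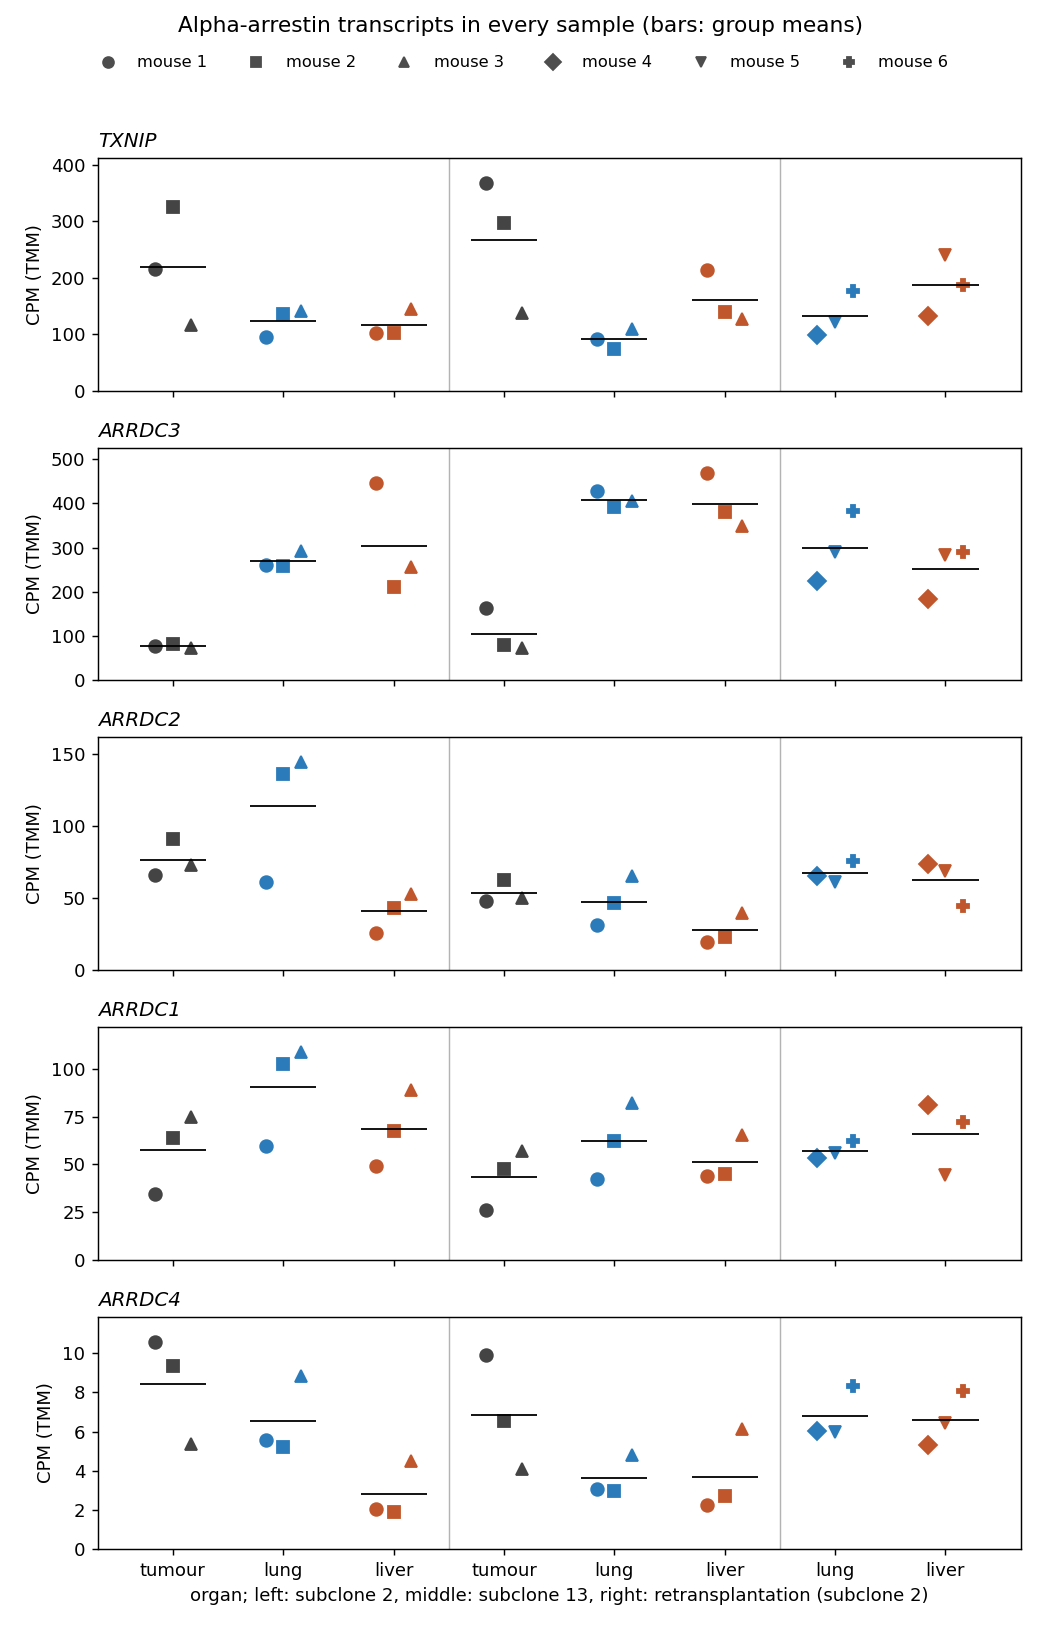
Each panel plots the TMM-scaled CPM (vertical axis, starting at 0) of an alpha-arrestin in every sample, by subclone and organ (horizontal axis); symbols are mice, colours are organs and bars are means of 3 samples. ARRDC3 sits at 72.0 to 164 CPM in the 6 tumour samples and at 210 to 469 CPM in the 12 metastasis samples of the first experiment, whereas TXNIP tumour samples reach from 117 to 368 CPM.

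ARRDC3, the adaptor for receptors and integrins, was lower in every tumour sample than in any metastasis sample of the first experiment. In subclone 2 tumours ARRDC3 was at 78.7, 81.6 and 72.0 CPM in mice 1, 2 and 3. The subclone 2 lung metastases of these mice had 261, 259 and 292 CPM and the liver metastases 446, 210 and 256 CPM. The groups did not overlap, and within the liver group mouse 1 stood above the others. In subclone 13, ARRDC3 was at 164, 79.2 and 74.1 CPM in tumours, with mouse 1 high. The 3 separate libraries of that tumour agreed on the high value, at 150 to 160 CPM. Lung metastases of subclone 13 had 428, 393 and 405 CPM and liver metastases 469, 379 and 349 CPM. The fitted log2 difference of metastasis from tumour was 1.80 ± 0.30 (SE) for lung and 1.97 ± 0.31 for liver in subclone 2, and 1.95 ± 0.31 for lung and 1.92 ± 0.31 for liver in subclone 13. The lung and liver differences of a subclone share their tumour samples. The leukocyte marker sum was also lower in every tumour sample than in any metastasis sample of this experiment. CD14 moved the most in that sum and PTPRC, at 0 to 0.889 CPM, overlapped. The part of these markers in the result was not tested.

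TXNIP, the thioredoxin-binding member, had its highest values in tumours of mice 1 and 2. In subclone 2 it was at 215, 325 and 117 CPM in tumours of mice 1, 2 and 3, at 94.8, 135 and 142 CPM in lung metastases and at 102, 102 and 144 CPM in liver metastases. Mouse 3 went the other way, with its tumour below both of its metastases, so that the subclone 2 groups overlapped. In subclone 13 TXNIP was at 368, 297 and 138 CPM in tumours, at 91.8, 73.4 and 109 CPM in lung metastases and at 214, 139 and 127 CPM in liver metastases. All 3 tumours of subclone 13 lay above all 3 lung metastases, and the liver group overlapped the tumours, since the mouse 3 tumour lay below the livers of mice 1 and 2. The fitted log2 difference from tumour was -0.82 ± 0.37 (lung) and -0.91 ± 0.37 (liver) in subclone 2, and -1.55 ± 0.37 (lung) and -0.74 ± 0.37 (liver) in subclone 13. Leaving out samples or mice gave -1.29 to -0.44 and -1.44 to -0.45 in subclone 2, lowest without mouse 3 and highest without the tumour of mouse 2 (lung) or all of mouse 2 (liver), and -2.03 to -1.24 and -1.07 to -0.44 in subclone 13. In mouse 3 alone the log2 difference of lung from tumour was 0.27 in subclone 2 and -0.34 in subclone 13.

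Within each subclone ARRDC4, the close relative of TXNIP, was also highest in the tumours of mice 1 and 2. Its subclone 2 values were 10.6, 9.36 and 5.34 CPM in tumours, 5.56, 5.22 and 8.84 CPM in lung metastases and 2.05, 1.90 and 4.50 CPM in liver metastases. All 3 livers lay below all 3 tumours and all 3 lungs. In subclone 13 ARRDC4 was at 9.88, 6.56 and 4.10 CPM in tumours, at 3.08, 2.96 and 4.82 CPM in lung and at 2.24, 2.72 and 6.11 CPM in liver, and these groups overlapped. Mouse 3 departed from the other mice, with its lung above its tumour in subclone 2, as for TXNIP, and both its lung and its liver above its tumour in subclone 13. The fitted log2 difference from tumour was -0.37 ± 0.48 (lung) and -1.57 ± 0.49 (liver) in subclone 2, and -0.93 ± 0.49 and -0.90 ± 0.49 in subclone 13. These values moved with the mice left out: without mouse 3 they were -0.94, -2.37, -1.46 and -1.75 in the same order, and without mouse 1 they were -0.11, -1.21, -0.45 and -0.27.

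ARRDC2 was at 65.8, 90.8 and 73.1 CPM in subclone 2 tumours of mice 1, 2 and 3, at 61.0, 136 and 144 CPM in the lung metastases and at 26.0, 43.4 and 52.7 CPM in the liver metastases. The liver samples were below every tumour and lung sample. In subclone 13 it was at 48.0, 62.7 and 50.2 CPM in tumours, at 31.0, 46.3 and 65.0 CPM in lung and at 19.7, 23.2 and 39.6 CPM in liver, again with every liver sample below every tumour sample. The fitted log2 difference of liver from tumour was -0.91 ± 0.36 in subclone 2 and -0.97 ± 0.36 in subclone 13, while that of lung from tumour was 0.57 ± 0.35 and -0.18 ± 0.35, or 0.28 to 0.87 and -0.54 to 0.06 with samples or mice left out.

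ARRDC1, the vesicle-budding member, varied more with the mouse than with the organ. In subclone 2 it was at 34.2, 64.0 and 74.6 CPM in tumours of mice 1, 2 and 3, at 59.5, 103 and 109 CPM in lung and at 48.9, 67.5 and 89.1 CPM in liver. Subclone 13 had 26.3, 47.3 and 57.0 CPM in tumours, 42.3, 62.0 and 82.1 CPM in lung and 44.0, 45.0 and 65.3 CPM in liver. Mouse 1 was the lowest and mouse 3 the highest in all 6 groups, and every group of ARRDC1 overlapped the next in the order of the means. The fitted log2 difference from tumour was 0.65 ± 0.36 (lung) and 0.25 ± 0.36 (liver) in subclone 2, and 0.51 ± 0.36 and 0.24 ± 0.36 in subclone 13. With samples or mice left out the lung values were 0.36 to 0.87 and 0.25 to 0.78, and the liver values reached -0.02 in each subclone without the tumour of mouse 1. ARRDC1 was higher in the lung than in the tumour of the same mouse in all 3 mice of each subclone. The library kit does not keep the strand, and ARRDC1 shares 29 exonic bases with ARRDC1-AS1, whose 5917 counts stood against 36705 for ARRDC1. ARRDC3 shares 145 exonic bases with ARRDC3-AS1, which had 183 counts against 157333. ARRDC1 also shares 183 exonic bases with AL590627.2 on the same strand, and ARRDC2 shares 442 with AC020904.3 on the opposite strand.

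Set against all 17418 genes tested, the members' separations of metastasis from tumour were as follows, and nothing is read from them because the members were chosen with these comparisons known. In lung against tumour of subclone 2, 1 of the 5 members (ARRDC3) had all 3 metastases above all 3 tumours, as had 7.33% of all genes, and no member lay wholly below, as 7.49% did. In liver against tumour of subclone 2, ARRDC3 lay wholly above (4.32% of all genes) and ARRDC2 and ARRDC4 wholly below (5.1%). In lung against tumour of subclone 13, ARRDC3 lay above (7.37%) and TXNIP below (9.91%). In liver against tumour of subclone 13, ARRDC3 lay above (5.22%) and ARRDC2 below (7.97%). ARRDC3 was thus separated in both organs and both subclones. Among all genes, 2.55% had lung above tumour in both subclones and 0.81% had liver above tumour in both. The edgeR quasi-likelihood test called 0.436% of all genes in lung and 0.287% in liver of subclone 2, and 0.419% and 0.385% in subclone 13.

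**Figure D2:**
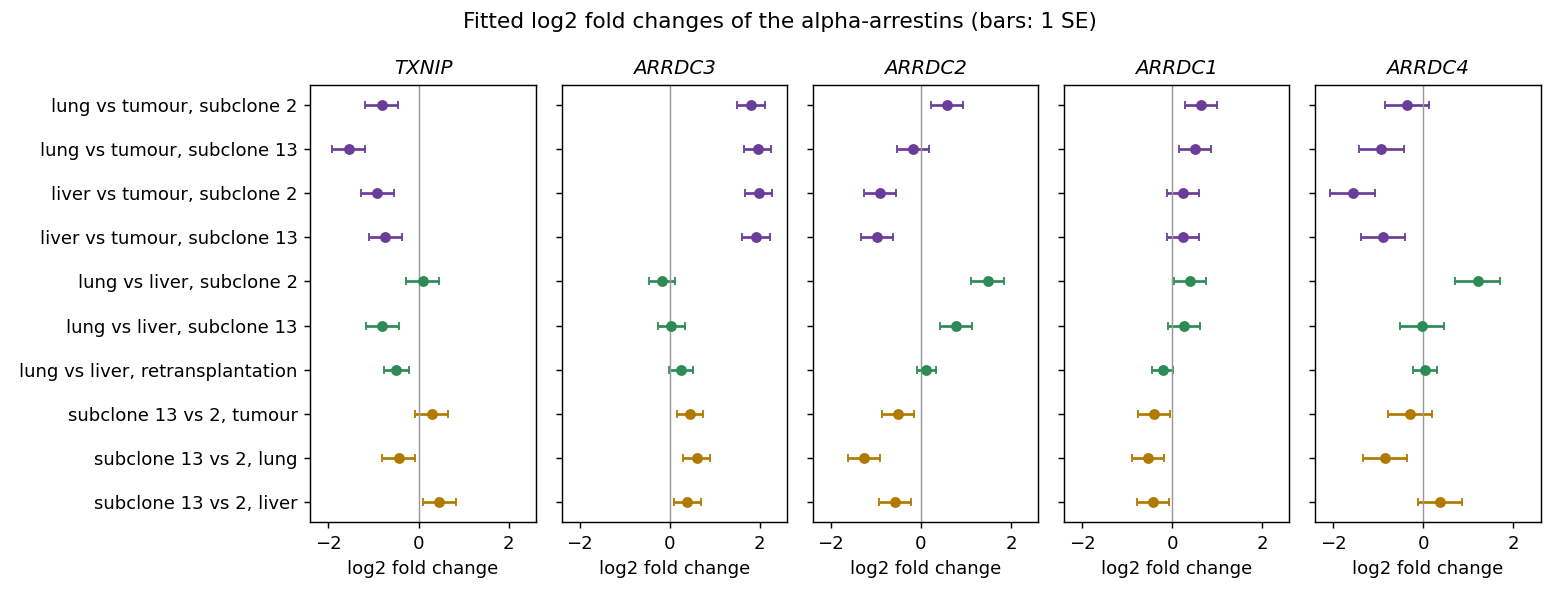
Each panel plots the fitted log2 fold change (horizontal axis) of an alpha-arrestin in 10 comparisons (vertical axis), with bars of 1 SE; purple marks metastasis against tumour, green lung against liver and ochre subclone 13 against 2. ARRDC3 lies between 1.80 and 1.97 in the 4 comparisons with tumour and near 0 between lung and liver, whereas ARRDC2 lies at 1.48 between lung and liver of subclone 2.

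The order of the members within a sample differed between tumours and metastases. This is a description, since the metastasis against tumour values of ARRDC3 were known when the family was chosen. Per kilobase of exon TXNIP was the most abundant member in all 6 tumour samples, and ARRDC3 was in all 12 metastasis samples of the first experiment. The ratio of ARRDC3 to TXNIP per kilobase was 0.185 to 0.452 in tumours of subclone 2, 1.40 to 2.02 in its lung metastases and 1.31 to 3.19 in its liver metastases. In subclone 13 it was 0.196 to 0.394 in tumours, 2.72 to 3.93 in lung and 1.61 to 2.01 in liver. Lung and liver of subclone 13 did not overlap in this ratio, whereas those of subclone 2 did. In the retransplantation samples the ratio was 1.59 to 1.76 for lung and 0.869 to 1.13 for liver, also without overlap. No share over ratios of other gene pairs is given, and 19.1% of single genes did not overlap in the retransplantation samples, so nothing is read from these separations. TXNIP exceeded ARRDC3 in 1 of the 6 retransplantation samples, the liver sample of mouse 5, and in 2 of them per kilobase of the longest transcript, where the liver sample of mouse 4 joined it. ARRDC1 and ARRDC2 changed places: ARRDC1 was above ARRDC2 in all 6 liver samples of the first experiment, in 4 of its 6 lung samples and in 2 of its 6 tumours. In the subclone 2 tumours of mice 2 and 3 both lay above ARRDC3. ARRDC4 was last in all 24 samples.

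**Figure D3:**
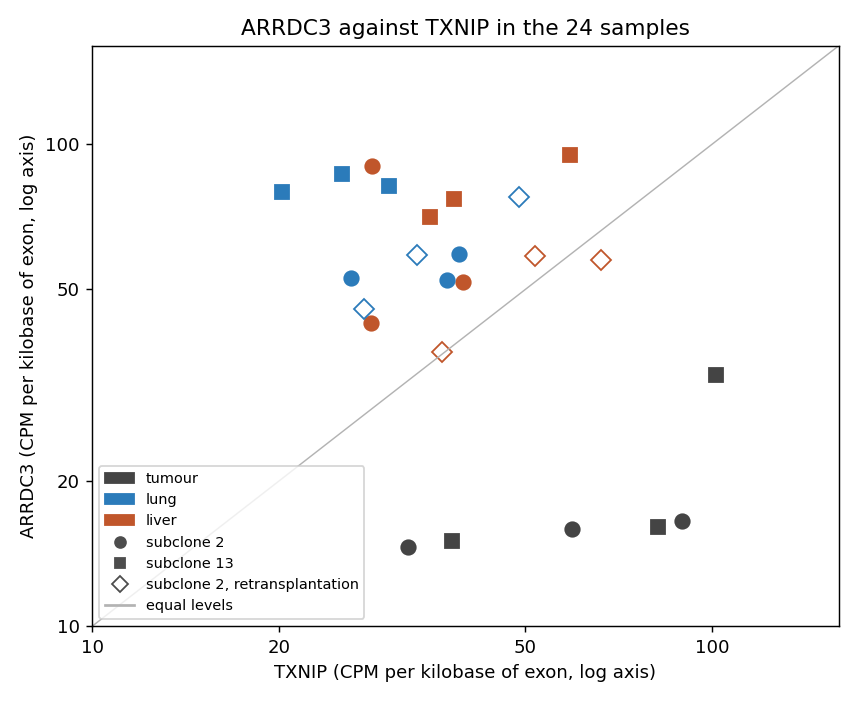
The plot sets ARRDC3 (vertical axis) against TXNIP (horizontal axis), both in CPM per kilobase of exon on log axes, for 24 samples; colours are organs, shapes are subclones and experiments, and the grey line marks equal levels. The 6 tumour samples lie below the line, at ratios of 0.185 to 0.452, and the 12 metastasis samples of the first experiment lie above it.

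Whether the members differed between lung and liver was tested within each subclone, and the largest differences were those of ARRDC2 in subclone 2 and of TXNIP in subclone 13. Counts of mice that went the same way are given here and elsewhere without the share over all genes, so they are a description. In subclone 2 ARRDC2 was 1.48 ± 0.36 higher in lung on the log2 scale, at 114 ± 45.9 CPM in lung and 40.7 ± 13.5 CPM in liver (mean ± SD, n = 3), and higher in the lung in 3 of 3 mice. This difference did not pass the threshold of 0.05 in edgeR (adjusted p = 0.166, unadjusted p = 0.000665). With mouse as a replicate block it was 1.46 ± 0.23 and passed (edgeR adjusted p = 0.00274), and DESeq2 gave 1.52 with an adjusted p of 0.0214. It also passed without mouse 1 (1.51 ± 0.29, edgeR adjusted p = 0.0295) and with no filter on low counts (adjusted p = 0.000989). Over its alternatives the log2 difference ranged from 1.20 to 1.78 and the adjusted p from 0.000989 to 1. ARRDC4 was 1.20 ± 0.49 higher in the lungs of subclone 2 (edgeR adjusted p = 0.44), in 3 of 3 mice. TXNIP (0.09 ± 0.36), ARRDC3 (-0.17 ± 0.30) and ARRDC1 (0.40 ± 0.36) differed by little more than 1 SE or less.

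Of the 5 members, 0 were called in lung against liver of subclone 2 by edgeR without the block, where 0.023% of all genes were called, and 2 members had an unadjusted p under 0.05. With the block 1 member was called, where 2.95% of all genes were, and DESeq2 also called 1, where 1.33% of all genes were. The samples did not overlap for 2 members, ARRDC2 and ARRDC4, both higher in lung, as for 5.92% of all genes. The endothelial markers PECAM1, CDH5, VWF and KDR summed to 13.9 to 16.9 CPM in lung and 28.5 to 31.3 CPM in liver of subclone 2. Nearly all of this was PECAM1, at 11.3 to 15.3 CPM in lung and 26.7 to 30.4 CPM in liver. CDH5 reached 1.15 CPM in lung and 0.0173 CPM in liver, VWF was at no more than 0.225 CPM, and KDR overlapped (0.409 to 2.58 and 0.848 to 1.73 CPM). The part of these markers was not tested.

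In subclone 13 no member was called between lung and liver by edgeR (0 of 5, 0% of all 17418 genes), with 2 unadjusted p-values under 0.05. With the block edgeR called 0 members where 0.276% of all genes were called, and DESeq2 also called 0 where it called 0.291%. TXNIP was 0.81 ± 0.37 lower in lung on the log2 scale, at 91.5 ± 17.9 CPM in lung and 160 ± 46.9 CPM in liver, and lower in 3 of 3 mice (edgeR adjusted p = 1, unadjusted p = 0.0411). It was the only member whose samples did not overlap here, lower in lung as were 5.53% of all genes. ARRDC2 was 0.79 ± 0.36 higher in lung, in 3 of 3 mice (edgeR adjusted p = 1, unadjusted p = 0.041). ARRDC1 (0.27 ± 0.36), ARRDC3 (0.03 ± 0.30) and ARRDC4 (-0.02 ± 0.49) differed by less than 1 SE. The difference of the subclones in lung against liver (13 minus 2) was -0.90 ± 0.52 for TXNIP, -1.23 ± 0.69 for ARRDC4 and -0.69 ± 0.50 for ARRDC2, and edgeR gave an adjusted p of 1 for each. EdgeR with or without the block and DESeq2 called 0 members and 0% of all genes in that comparison, with 0 members at an unadjusted p under 0.05.

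Whether the subclones differed was tested in each organ, and ARRDC2 had the largest difference in each. In lung metastases ARRDC2 was 1.27 ± 0.36 lower in subclone 13 on the log2 scale, at 47.4 ± 17.0 CPM against 114 ± 45.9 CPM in subclone 2, and lower in 3 of 3 mice. Without the block it was not called (edgeR adjusted p = 0.241), and with mouse as a replicate block it was (-1.24 ± 0.23, edgeR adjusted p = 0.00755). DESeq2 gave -1.28 with an adjusted p of 0.0892, and over its alternatives the log2 difference ranged from -1.56 to -1.02 and the adjusted p from 0.00755 to 1. The samples overlapped, since the subclone 2 lung of mouse 1 (61.0 CPM) lay below the subclone 13 lung of mouse 3 (65.0 CPM). ARRDC3 was 0.60 ± 0.30 higher in subclone 13 lungs without overlap (edgeR adjusted p = 0.758). ARRDC4 was 0.86 ± 0.49 lower, also without overlap (edgeR adjusted p = 0.838).

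In lung, 0 of the 5 members were called between the subclones by edgeR, where 0.184% of all genes were, and 1 had an unadjusted p under 0.05. With the block 1 member was called, against 1.54% of all genes, and DESeq2 called 0, against 1.2%. The separation of ARRDC3 above and of ARRDC4 below was shared by 6.6% and 5.9% of all genes. The hepatocyte markers moved with the subclone in lung, tumours and liver alike. In lung they summed to 32.3 to 87.7 CPM in subclone 2 and 88.9 to 109 CPM in subclone 13. The sums were 59.8 to 67.1 and 141 to 236 CPM in tumours, and 26.3 to 56.7 and 170 to 213 CPM in liver. Nearly all of this was SERPINA1, with ALB at no more than 0.806 CPM, and the part of these markers was not tested. In tumours 0 of 5 members were called by edgeR (0.109% of all genes) and in liver 0 of 5 (0.247%), with 0 unadjusted p-values under 0.05 in each. With the block 0 members were called in tumours (0.505% of all genes) and 0 in liver (1.5%), and DESeq2 called 0 in each (0.517% and 1.35%). ARRDC2 was 0.51 ± 0.35 lower in tumours of subclone 13 without overlap (4.16% of all genes) and 0.57 ± 0.36 lower in liver with overlap, and it was lower in 3 of 3 mice in each. No member's samples were separated between the subclones in liver, as 9.89% of all genes were. TXNIP differed between the subclones by 0.29 ± 0.36 in tumours, -0.44 ± 0.37 in lung and 0.46 ± 0.36 in liver.

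The metastasis against tumour differences of the members did not differ detectably between the subclones. The difference of differences (13 minus 2) ranged over the 5 members from -0.75 to 0.15 on the log2 scale for lung and from -0.06 to 0.67 for liver, and the smallest adjusted p in edgeR was 1 in each. EdgeR called 0 of 17418 genes (0%) in either, with 0 members at an unadjusted p under 0.05, and the block and DESeq2 called 0 members. In liver against tumour the block called 0.00574% of all genes and DESeq2 0.00533%, and in lung against tumour both called 0%.

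In the retransplantation experiment the levels of the members were close between samples labelled lung and liver. TXNIP was at 99.4, 121 and 177 CPM in the lung samples of mice 4, 5 and 6 and at 133, 240 and 188 CPM in the liver samples. It was lower in lung in 3 of 3 mice, as in subclone 13, but the groups overlapped, with a log2 difference of -0.50 ± 0.28 (edgeR adjusted p = 0.507). ARRDC3 was at 225, 291 and 383 CPM in lung and at 183, 283 and 289 CPM in liver, higher in lung in 3 of 3 mice by 0.25 ± 0.26 (edgeR adjusted p = 0.732). These ARRDC3 levels lay above all 6 tumour samples of the first experiment, although the tables were scaled separately and no tumour was sampled here. ARRDC2 was at 65.4, 61.1 and 76.0 CPM in lung and at 73.7, 68.5 and 44.6 CPM in liver, a log2 difference of 0.12 ± 0.21. ARRDC1 was at 53.0, 56.1 and 62.0 CPM in lung and at 81.3, 44.4 and 72.2 CPM in liver (-0.21 ± 0.23). ARRDC4 was at 6.04, 5.95 and 8.34 CPM in lung and at 5.30, 6.44 and 8.08 CPM in liver (0.03 ± 0.27).

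Of the 5 members, 0 were called between these samples by edgeR, which called 0% of 17549 genes, with 0 members at an unadjusted p under 0.05. With the block 0 members were called against 0.479% of all genes, and DESeq2 called 0, against 2%. No member's groups were separated, whereas 19.1% of all genes had groups that did not overlap. SFTPC, a lung epithelium marker, was at 0.876 to 3.49 CPM in lung and at most 0.0304 CPM in liver here. AGER, another such marker, went the other way, at 3.51 to 4.66 CPM in lung and 4.67 to 7.36 CPM in liver. The lung epithelium sum overlapped, at 4.51 to 8.19 CPM in lung and 4.67 to 7.39 CPM in liver. Of the red cell markers, HBB was at 0.908 to 9.02 CPM in lung and at most 0.218 CPM in liver, with HBA1 and HBA2 at no more than 0.0744 CPM. The part of these markers was not tested. The lung against liver difference of ARRDC2 in subclone 2 was 1.35 ± 0.49 larger in the first experiment than in the second (edgeR adjusted p = 0.785, unadjusted p = 0.0158). For ARRDC4 it was 1.16 ± 0.59 larger (adjusted p = 0.864), for ARRDC1 0.60 ± 0.43, for TXNIP 0.58 ± 0.40 and for ARRDC3 -0.40 ± 0.40. EdgeR called 0 of the 5 members and 0% of 18950 genes in this comparison, with 1 unadjusted p under 0.05 among the members, and the block (0% of all genes) and DESeq2 (0.105%) called 0 members. The experiments differ in mice and in sequencing run as well.

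The proteins that alpha-arrestins work with were described from 9 lists of 91 genes. The lists were chosen with earlier results of these data known, so their calls are no independent support. Over all genes and the 14 comparisons, 6.08% of edgeR tests without the block had an unadjusted p under 0.05, 0.148% were called, and 1.19% were called with the block and 0.778% by DESeq2. Of the NEDD4 family ligases and adaptors, 11 of 11 were tested and 0 were called by edgeR in any of the 14 comparisons, with an unadjusted p under 0.05 in 10 of 154 tests (genes times comparisons), or 6.49%. NEDD4 itself had its lowest level in subclone 2 lungs, at 15.9 ± 0.29 CPM against 34.1 ± 6.55 CPM in tumours and 31.3 ± 6.41 CPM in liver (mean ± SD, n = 3). Its log2 difference of lung from tumour was -1.10 ± 0.28 (edgeR adjusted p = 0.119), and with the block it was called there (-1.07 ± 0.20, adjusted p = 0.00604) and against liver (-0.94 ± 0.20, adjusted p = 0.0175), while DESeq2 called it against tumour only. SMURF1, another ligase of this family, was called with the block in subclone 13 lung against tumour (-0.73 ± 0.19, edgeR adjusted p = 0.0447). In each lung against tumour comparison 10 of the 11 fitted below 0, with medians of -0.24 in subclone 2 and -0.13 in subclone 13, against medians over all genes of 0.05 and 0.03.

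Of the thioredoxin and peroxiredoxin system, the redox proteins around TXNIP, 12 of 12 genes were tested and 0 were called in any comparison by edgeR with or without the block or by DESeq2, with an unadjusted p under 0.05 in 2 of 168 tests (1.19%). TXN, which encodes thioredoxin, was at 213 ± 52.5 CPM in subclone 2 tumours, 268 ± 95.6 CPM in lung and 262 ± 92.9 CPM in liver. The list's median log2 difference from tumour was 0.25 (lung) and 0.30 (liver) in subclone 2, and 0.06 and 0.12 in subclone 13.

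Of the genes for glucose sensing, uptake and phosphorylation, 12 of 15 were tested and 0 were called by edgeR without the block, with an unadjusted p under 0.05 in 16 of 168 tests (9.52%). The block called 2.98% of these tests, and DESeq2 called 3 of them (1.79%), in the genes SLC2A3 and HK2. MLXIP, which encodes MondoA, had log2 differences from tumour of -0.68 ± 0.24 (lung) and -0.39 ± 0.24 (liver) in subclone 2 and -0.58 ± 0.24 and -0.34 ± 0.24 in subclone 13, none of them called. SLC2A3, the glucose transporter GLUT3, was at 212 ± 104 CPM in tumours and 571 ± 247 CPM in liver of subclone 2, and at 300 ± 105 CPM and 857 ± 43.4 CPM in subclone 13 (mean ± SD, n = 3). It was called in liver against tumour with the block, at 1.53 ± 0.31 in subclone 2 (edgeR adjusted p = 0.0117) and 1.57 ± 0.30 in subclone 13 (0.00764), and DESeq2 called it in both. Without the block the adjusted p was 0.196 and 0.131. HK2, a hexokinase, was called with the block in subclone 2 liver against tumour (1.43 ± 0.31, edgeR adjusted p = 0.0192). SLC2A1, the glucose transporter GLUT1 and a reported target of TXNIP, was called with the block only in subclone 13 lung against tumour (-1.01 ± 0.24, edgeR adjusted p = 0.0271), together with the hexokinase HK1 (-0.75 ± 0.18). It was at 264 ± 93.4 CPM in those lungs and 526 ± 183 CPM in tumours. All 12 tested genes of this list fitted lower in lung than in liver in subclone 13, with a median of -0.41 against 0.01 over all genes, and 9 of 12 did so in subclone 2.

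Of the ESCRT genes of vesicle budding, 13 of 13 were tested and 0 were called by edgeR without the block, with an unadjusted p under 0.05 in 9 of 182 tests (4.95%). DESeq2 called STAM and MVB12B in the same comparisons as the block. With the block STAM was called in subclone 2 lung against tumour (-0.70 ± 0.18, edgeR adjusted p = 0.036) and MVB12B in subclone 13 (-1.36 ± 0.33, adjusted p = 0.0288). Of the other proteins of the arrestin fold, which include the beta-arrestins ARRB1 and ARRB2, 5 of 6 were tested, and 0 were called in any comparison by edgeR with or without the block or by DESeq2, with an unadjusted p under 0.05 in 1 of 70 tests (1.43%). Of the antisense neighbours ARRDC1-AS1 and ARRDC3-AS1, 0 were called by these tools, with an unadjusted p under 0.05 in 2 of 16 tests.

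Among 9 reported cargoes and partners, 9 were tested, and 27 of 126 tests (21.4%) had an unadjusted p under 0.05. DDIT4, a stress-induced inhibitor of mTORC1 that TXNIP is reported to stabilise, passed edgeR's threshold in liver against tumour of both subclones, and it and DUSP1 were known from earlier results of these data, so their values are given as a description. It was at 32.0 ± 8.36 CPM in tumours and 219 ± 134 CPM in liver of subclone 2, and at 61.0 ± 33.4 CPM and 351 ± 167 CPM in subclone 13 (mean ± SD, n = 3). The fitted log2 difference of DDIT4 was 2.77 ± 0.48 in subclone 2 and 2.52 ± 0.47 in subclone 13. F2R, which encodes the ARRDC3 cargo PAR1, was called with the block in subclone 2 lung (-0.81 ± 0.17, edgeR adjusted p = 0.0118) and liver (-0.70 ± 0.17, adjusted p = 0.0381) against tumour and in subclone 13 lung (-0.69 ± 0.17, adjusted p = 0.0285). In subclone 13 liver F2R was at 107 ± 2.37 CPM, against 107 ± 8.51 CPM in tumours. Between the subclones in liver the block called F2R (edgeR adjusted p = 0.00435) higher and INSR, the insulin receptor (-0.92 ± 0.21, 0.0289), lower in subclone 13. NLRP3, an inflammasome sensor, was called higher with the block in subclone 13 in lung (2.82 ± 0.64, edgeR adjusted p = 0.0295) and liver (2.59 ± 0.58, 0.0271). These calls rest on low levels. NLRP3 was at 0.285 ± 0.0692 CPM in lung and 0.487 ± 0.242 CPM in liver of subclone 2, and at 2.08 ± 1.42 and 2.89 ± 1.14 CPM in subclone 13. ITGB4, the integrin cargo, was called in no comparison.

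Of the FOXO factors and FOXO or energy stress targets 13 of 13 were tested, and 0 were called by edgeR without the block, with an unadjusted p under 0.05 in 28 of 182 tests (15.4%). The block called 10 of these tests (5.49%) and DESeq2 called 8 (4.4%). In lung against tumour more of the list fitted below 0 than above, 8 of 13 genes in subclone 2 (median -0.23) and 9 of 13 in subclone 13 (median -0.11). PDK4, a kinase that limits glucose oxidation, was called with the block in lung against tumour of subclone 2 (1.27 ± 0.24, edgeR adjusted p = 0.00675) and subclone 13 (1.34 ± 0.24, 0.00469) and in liver against tumour of subclone 2 (1.33 ± 0.24, 0.00568). KLF9, also induced by glucocorticoids, was called with the block in lung against tumour of both subclones (0.96 ± 0.20 and 0.78 ± 0.20). In lung against liver of subclone 2 the block called CCNG2 (-0.88 ± 0.19, edgeR adjusted p = 0.0169) and SESN3 (-1.31 ± 0.31, 0.0288), both lower in lung, and IRS2 (0.92 ± 0.24, 0.0446), higher in lung. Between the subclones (13 minus 2) it called SESN3 in lung (1.63 ± 0.32, edgeR adjusted p = 0.0116) and FBXO32 in liver (-1.40 ± 0.34, 0.0465). Of the glucocorticoid receptor and its targets 9 of 10 were tested, and 19 of 126 tests (15.1%) had an unadjusted p under 0.05. DUSP1, a phosphatase that switches off MAP kinases, passed edgeR's threshold in all 4 comparisons of metastasis with tumour. Its fitted log2 difference from tumour was 2.50 ± 0.45 (lung) and 2.30 ± 0.45 (liver) in subclone 2 and 2.21 ± 0.44 and 2.22 ± 0.44 in subclone 13. FKBP5, a glucocorticoid-induced chaperone partner, was called with the block in subclone 2 lung against tumour (1.06 ± 0.19, edgeR adjusted p = 0.00331), as was CEBPD, a transcription factor (1.35 ± 0.34, 0.0337). NR3C1, which encodes the glucocorticoid receptor, was called lower with the block in subclone 2 liver against tumour (-0.86 ± 0.19, edgeR adjusted p = 0.0197), where ERRFI1, an inhibitor of the EGF receptor, was called higher (1.10 ± 0.22, 0.0123). FKBP5 was also called with the block in subclone 13 liver against tumour (0.78 ± 0.18, edgeR adjusted p = 0.0327) and in subclone 2 lung against liver (0.68 ± 0.18, 0.0493). The list's median log2 difference from tumour was 0.43 to 0.69 over the 4 comparisons.

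The genes most like each member were taken as the 3 with the highest correlation (Pearson r) of log2 CPM over the 18 samples of the first experiment after subtraction of each mouse's mean, among 11024 genes. These samples share groups, mice and runs, so the values are a description. ARRDC3 was most like DUSP1 (r = 0.96), SPRY1 (0.96), which restrains receptor tyrosine kinases, and SOCS3 (0.95), a feedback inhibitor of cytokine receptors. Over the 6 retransplantation samples, which were not used to choose them, the correlations with ARRDC3 were 0.78, 0.74 and 0.74. These were taken without subtraction of each mouse's mean, so differences between mice enter them. Without the subtraction the first experiment gave 0.92, 0.93 and 0.87. SPRY1 was at 15.6 ± 0.999 CPM in tumours, 61.0 ± 13.9 CPM in lung and 64.7 ± 2.44 CPM in liver of subclone 2, and at 21.3 ± 2.71, 109 ± 13.1 and 118 ± 38.3 CPM in subclone 13 (mean ± SD, n = 3). SOCS3 was at 75.9 ± 37.9 CPM in tumours of subclone 2 and at 575 ± 230 CPM in lung.

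**Figure D4:**
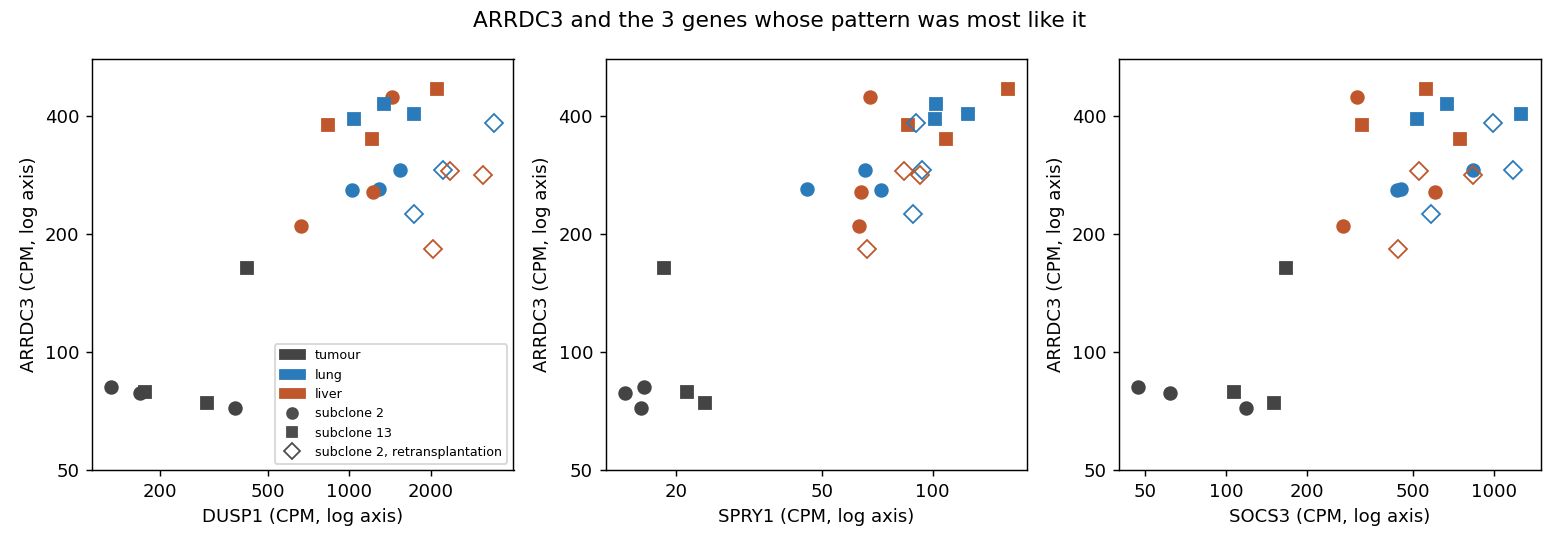
The panels set ARRDC3 (vertical axis) against DUSP1, SPRY1 and SOCS3 (horizontal axes), in CPM on log axes, for 24 samples; colours are organs, and shapes are subclones and experiments. In each panel the 6 tumour samples lie apart at the lower left, with the subclone 13 tumour of mouse 1 above the rest at 164 CPM of ARRDC3.

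ARRDC2 was most like PCGF3 (r = 0.96), a polycomb group protein, TRIP10 (0.93), a membrane-bending adaptor, and DGKD (0.92), a diacylglycerol kinase. In the retransplantation samples, without subtraction of each mouse's mean here and below, these correlations were 0.68, -0.07 and 0.13. ARRDC1 was most like ARHGAP45 (0.92), PSMG3 (0.92), a proteasome assembly chaperone, and HEXIM1 (0.91), an inhibitor of transcription elongation. All 3 correlated with ARRDC1 at or below -0.12 in the retransplantation samples. ARRDC4 was most like COG3 (0.91), a Golgi tethering protein, WDFY2 (0.87) and PVR (0.86), a cell adhesion receptor. In the retransplantation samples their correlations with ARRDC4 were -0.58, -0.67 and 0.13. TXNIP was most like DTX3L (0.84), a ubiquitin ligase, STAT5B (0.83), a cytokine-activated transcription factor, and NUMB (0.81), an endocytic adaptor. The 3 genes most like TXNIP had correlations of -0.38, -0.61 and -0.53 with it in the retransplantation samples. Without the subtraction the first experiment gave 0.76, 0.46 and 0.51. The likeness was thus not seen in the retransplantation samples without the subtraction, and it was not measured there with it.

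Among the members themselves the correlation over the 18 samples, with each mouse's mean subtracted, was 0.74 for ARRDC2 with ARRDC4 and 0.66 for TXNIP with ARRDC4. ARRDC3 went the other way, at -0.57 with TXNIP and -0.58 with ARRDC4. Without the subtraction these values were 0.69, 0.59, -0.53 and -0.56 in the same order. Within the retransplantation samples, which hold no tumours, correlations were taken without the subtraction. There ARRDC3 correlated at 0.49 with TXNIP and at 0.83 with ARRDC4. There TXNIP correlated with ARRDC4 at 0.54 and ARRDC2 with ARRDC4 at -0.36. Without the subtraction the sign between TXNIP and ARRDC4 was thus shared by both experiments. That of ARRDC3 with each of them was not, nor was that of ARRDC2 with ARRDC4. Signs with each mouse's mean subtracted were not compared between the experiments.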

How the data were processed

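Members and lists were chosen with earlier results of these data known. Libraries were made with an unstranded Illumina TruSeq RNA kit, per the labels' protocols; bcl2fastq 2.15.0.4, cutadapt, STAR, featureCounts and GRCh38 are named, per the submitters' processing notes. The values deposited by the authors were whole-number counts per gene, in 2 tables sharing 33867 genes. IDs were matched to GENCODE v29. The 3 libraries per organ of subclone 13 of mouse 1 were summed.

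Counts were filtered (filterByExpr), scaled (TMM) and fitted with edgeR 4.0.16 (R 4.3.3), all groups of an experiment together, with Benjamini-Hochberg adjustment over all genes tested and a threshold of 0.05. SE is |log2 change| over the square root of F. The scripts were tested on simulated data. All members and the list genes past the threshold (at most 4 per list and comparison) are named, plus the 3 genes most like each member (prior count 2, mean of at least 5 CPM).

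Sample numbers are mice, per the labels. Deviations from the group means correlated at a median of 0.36 over 45 same-mouse pairs (lowest 0.15, other mice -0.25) and 0.30 over 3 pairs in the retransplantation experiment (lowest 0.28). Deviations within a group sum to 0, so the value for other mice is no independent contrast. In the first experiment these values do not tell mouse from sequencing run. Mouse as an additive replicate block lowered the biological coefficient of variation from 0.476 to 0.33 and from 0.296 to 0.227. Block values are printed where they changed a call. Other alternatives were DESeq2 1.42.0, RLE scaling, no filter, only the groups compared, single technical libraries, and leaving out samples and mice. One gene of the list of cargoes is not reported here.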

Additional observations from a re-analysis of the deposited data

How the results depend on the processing

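Members called in lung against liver of subclone 2 went from 0 to 1 (ARRDC2) with no filter on low counts, with the replicate block and with DESeq2, and it was 0 to 1 without single samples or mice, with 1 without mouse 1. Between the subclones in lung the count went from 0 to 1 (ARRDC2) with no filter and with the replicate block. The block changed no other call of a member, and the cause of these changes was not tested. The tested log2 values whose sign was not stable were at most 0.45 in size: ARRDC3 in subclone 13 lung against liver was -0.0079 with the library not labelled technical, and ARRDC4 there was 0.018 with the replicate block. Leaving out samples or mice gave ARRDC3 1.64 to 1.86 in subclone 2 lung against tumour; in subclone 2 lung against liver it gave ARRDC3 -0.38 to 0.21 and TXNIP -0.058 to 0.27; in subclone 13 lung against liver ARRDC3 -0.051 to 0.17 and ARRDC4 -0.29 to 0.55. Between the subclones it gave ARRDC3 -0.019 to 0.67 and TXNIP -0.055 to 0.67 in tumours, and ARRDC4 -0.22 to 0.90 in liver. In the retransplantation samples it gave ARRDC1 -0.44 to 0.0065, ARRDC2 -0.16 to 0.26 and ARRDC4 -0.13 to 0.21. Without the subclone 13 tumour of mouse 1, the ARRDC3 difference between the subclones in tumours was -0.012. All of the 20 metastasis against tumour values of the members except ARRDC1 in liver and ARRDC2 in subclone 13 lung kept their sign under every alternative run. Over all genes the block raised the calls of metastasis against tumour from 76, 50, 73 and 67 (lung and liver of subclone 2, then of subclone 13) to 532, 292, 503 and 318, and DESeq2 called 337, 255, 307 and 237. Lung against liver went from 4 and 0 to 514 and 48 with the block and to 277 and 50 with DESeq2. Subclone differences in tumour, lung and liver went from 19, 32 and 43 to 88, 269 and 262 with the block. RLE scaling moved the median of all genes by at most 0.05 in size on the log2 scale. Without subtraction of each mouse's mean, 8 of the 15 likeness correlations moved by more than 0.1, to between 0.46 and 0.77. ARRDC4, at 32 to 458 counts per sample, was the least precise member.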
